A study of Homo sapiens with 16 samples.

Results

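The DNA replication machinery was followed in SUM225 (SUM-225 in the labels), a breast cancer cell line with amplified and overexpressed HER2, while the HER2 kinase was inhibited. Its members were 42 genes given by symbol, and a gene was analysed when a probe with that symbol had a detection p under 0.05 on 3 or more of the 16 arrays. This held for 39 genes and 52 of their 57 probes, out of 16110 probes and 13108 gene symbols that passed the same filter over the whole array. POLD3 was detected on 1 array and was not tested, and POLD2 and TIPIN were not analysed here. The labels give a medium with serum, insulin and hydrocortisone. By contrast, the study describes serum-free conditions for this line, and its methods give a medium lacking insulin and EGF. All cultures received 1 µM CP724,714, a small molecule inhibitor of the HER2 kinase. RNA came from separate, parallel dishes taken at 3 h intervals between 0 h and 45 h. Each time point has 1 array and no replicate. There was no course of untreated cultures, so the inhibitor and the time in culture cannot be told apart.

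The median signal of an array was between 242 and 384, and 57.5% to 61.5% of its probes (14110 to 15073) were detected. All 8 luminal epithelial markers of the HER2-amplified line, ERBB2, GRB7 and KRT19 among them, were detected on all 16 arrays. Over the same course KRT8 (-0.68, adjusted p = 2.14e-05) and KRT18 (-0.74, adjusted p = 7.73e-06) fell. Of the fibroblast markers 2 of 5 were detected on 3 or more arrays (COL1A1 and COL1A2, on 5 each) and COL3A1, PDGFRB and THY1 on 0. Of the endothelial markers 2 of 3 were (PECAM1 on 16, VWF on 13), and VWF rose by 2.51 on the log2 scale (adjusted p = 4.03e-07). Of the leukocyte markers 2 of 4 were (CD14 on 16, CD79A on 11), and PTPRC was detected on 0. The part of these markers in the results was not tested. Levels are given as log2 intensity after background correction and quantile normalisation. They are compared within a probe only, because probes differ in brightness.

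DNA is copied in an ordered series of steps. The origin recognition complex, with CDC6 and CDT1, loads the MCM helicase onto origins before S phase, and CDC7, MCM10, CDC45 and the GINS complex turn it into a moving fork. Primase and the polymerases then copy the strands, held by the sliding clamp PCNA that replication factor C loads, while RPA covers the bare strand and FEN1, EXO1 and LIG1 process and join the fragments. Many of these genes are transcribed around entry into S phase under E2F factors. In bulk RNA, fewer cells in S phase and less of the transcript per cell cannot be told apart.

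Replication genes fell together, and their largest drop between adjacent arrays lay between 9 h and 12 h. Over the 45 h, 36 of the 39 genes had a linear fall (limma on a cubic course, Benjamini-Hochberg adjusted p under 0.05 over all probes tested), 0 rose and 3 passed in neither direction. Over all probes, 21.7% fell and 26% rose. The median linear change was -1.99 log2 units (range -3.98 to 0.12), against 0.05 over all probes. With ORC1L and CDC6, which were not detected in every window, raised to the lowest detected level of each array, the median was -1.92. A change with time of any shape was called for 37 of the 39 genes and for 51.3% of all probes. The largest falls belonged to Pfs2, the gene that RefSeq lists as GINS2 and that encodes a GINS subunit (-3.98 ± 0.24 SE, adjusted p = 2.36e-10), the exonuclease EXO1 (-3.68 ± 0.29, adjusted p = 5.27e-09), the helicase activators MCM10 (-3.67 ± 0.26, adjusted p = 1.6e-09) and CDC45L (-3.67 ± 0.37, adjusted p = 1.33e-07), and the helicase subunit MCM2 (-3.30 ± 0.26, adjusted p = 5.65e-09) among the genes detected in every window. The 3 genes without a linear call were ORC2L, ORC6L and WDHD1, of which WDHD1 fell in the window test described below.

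**Figure D1:**
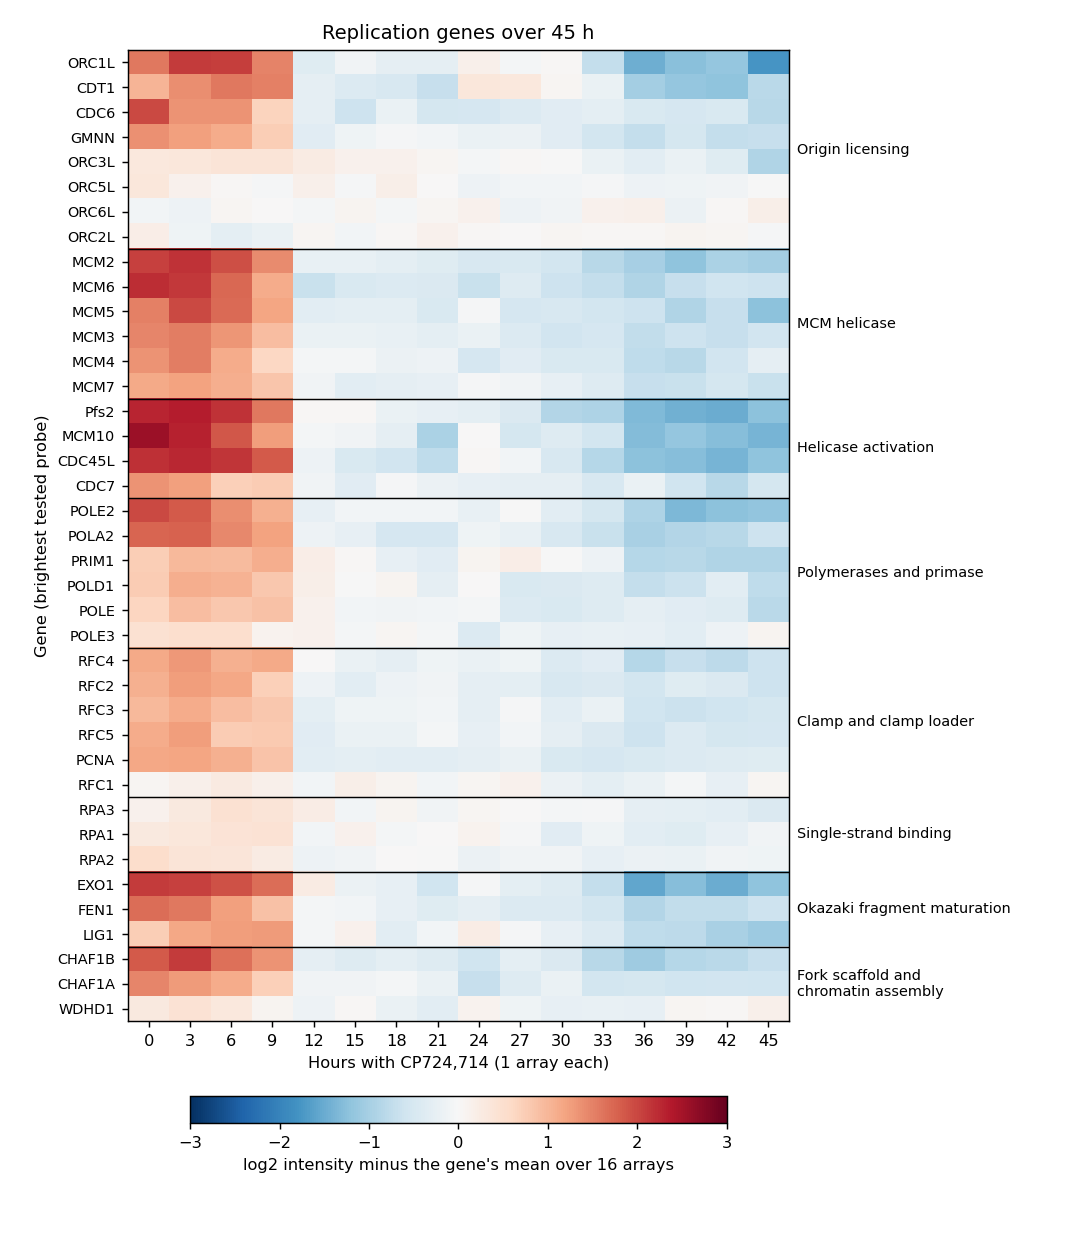
Each row is a replication gene, grouped by sub-complex, and each column is the array of a time point in hours with CP724,714. Colour gives log2 intensity minus the mean of the gene over the 16 arrays. Most rows change from red to pale or blue between 9 h and 12 h, while ORC2L, ORC6L, ORC5L and RFC1 stay pale throughout.

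The array at 3 h was the highest point of the shared course. Centred on each gene's own mean, the median over the 39 genes was 1.15, 1.26, 1.11 and 0.82 over the 4 arrays from 0 h to 9 h. It was -0.10 at 12 h and -0.20 at 21 h, reached -0.44 at 33 h and lay between -0.69 and -0.60 from 36 h to 45 h. Thus a slow decline from 3 h to 9 h was followed by a drop, a near plateau, and a smaller decline from 27 h to 36 h. From 3 h to 6 h, 32 of the 39 genes were lower, and from 6 h to 9 h 30 genes were. The median differences over all 39 were -0.12 and -0.24, against 0.004 and 0.009 over all probes. From 9 h to 12 h, 36 of the 39 genes were lower, with a median difference of -0.96, against 0.01 over all probes. This interval held the largest drop between adjacent arrays for 31 of the 39 genes. The share of all probes with their largest drop there was not taken. A drop of 1 log2 unit or more there, a description without a test, was seen in 19 of the 39 genes and in 1.79% of all probes. From 33 h to 36 h, 32 genes were lower, with a median difference of -0.19, against 0.01 over all probes.

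Windows of 4 consecutive arrays (0-9 h, 12-21 h, 24-33 h and 36-45 h) were also compared with a test, in which the spread within windows is the error. These windows were chosen with earlier results of these data known, and the drop described above lies on a border between them. The window tests are therefore not independent of that drop. From 0-9 h to 12-21 h, 34 of the 39 genes fell (13.9% of all probes) and 0 rose (15.9% of all probes), with a median difference of -1.27. From 12-21 h to 24-33 h, 1 gene fell (Pfs2, -0.54 ± 0.15, adjusted p = 0.0381; 3.36% of all probes) and 1 rose (CDT1, 0.59 ± 0.14, adjusted p = 0.0116; 4.21% of all probes), with a median of -0.10. From 24-33 h to 36-45 h, 13 genes fell (2.82% of all probes), with a median of -0.31. The early step was the more negative of the 2 for 29 of the 39 genes by the test of the difference itself (6.23% of all probes), and the late step was for 0 genes (5.49% of all probes; 0 genes also at an unadjusted p under 0.05). The shape of the course departed from a straight line in 22 of the 39 genes and in 19.3% of all probes. With the windows moved to 0-6 h, 9-18 h, 21-30 h and 33-45 h, 31 genes fell in the early step, 2 in the late step, and 13 had the larger early step.

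**Figure D2:**
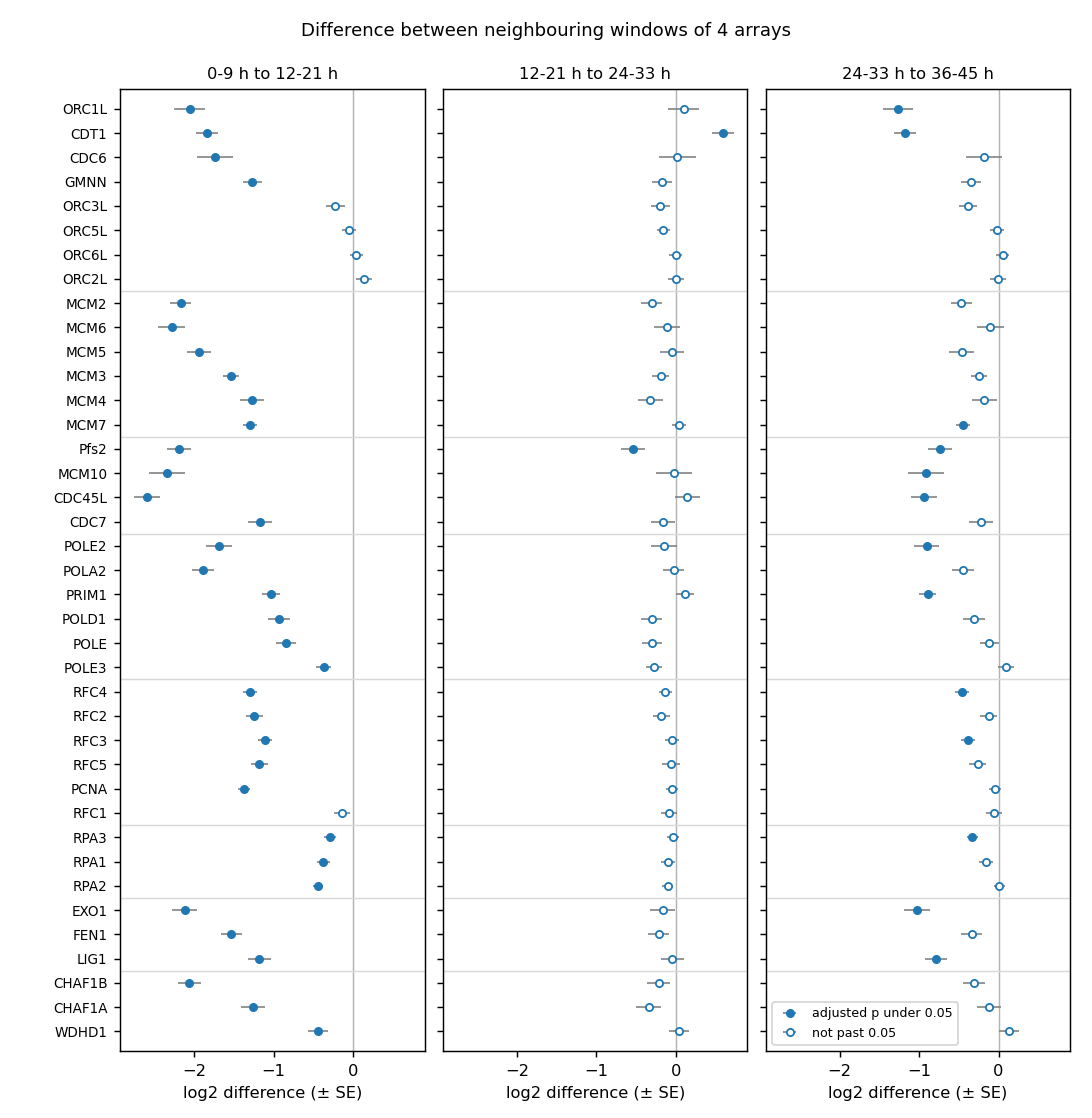
Points are the difference in log2 intensity between neighbouring windows of 4 arrays for each replication gene, with bars of 1 SE from the limma fit and sub-complexes divided by grey lines. Filled points passed an adjusted p of 0.05. The early step on the left is negative and filled for 34 genes, the middle step lies near 0, and the late step on the right is filled for 13 genes.

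The drop at 12 h, the smaller one at 36 h and the partial returns at 24 h described for single genes fall on borders between sets of 4 consecutive arrays. These sets are the windows above, so the error within windows leaves out any difference between sets. The labels name no batch, and a difference between sets and a difference between these hours cannot be told apart. In a fit of 1 straight line within all sets, each set having its own level, 1 of the 39 genes, MCM10, kept a linear fall (-3.43, adjusted p = 0.0353, 0.478% of all probes). The median over the genes was -0.80. The SEs were larger in this fit, 0.56 against 0.26 in the cubic fit for MCM2 and 0.33 against 0.18 for PCNA, so it is less able to call a fall. Between 21 h and 24 h, 21 of the 39 replication genes and all 27 mitosis genes tested were higher. The median differences were 0.02 and 0.54, against -0.01 over all probes, and the share of all probes that were higher was not taken. Differences between the arrays of a single set do not cross a border. Within the 0-9 h set, 28 of the 39 genes were lower at 9 h than at 0 h, with a median difference of -0.33 (0.02 over all probes), and 13 were lower by 0.5 log2 units or more (13.6% of all probes). Within the 12-21 h set 27 genes were lower at 21 h than at 12 h (median -0.12), 4 of them by 0.5 or more (6.18% of all probes). Within the 24-33 h set 32 were lower at 33 h than at 24 h (median -0.25), 9 of them by 0.5 or more (5.59%), and within the 36-45 h set 16 were lower at 45 h than at 36 h (median 0.04), 3 by 0.5 or more (10.9%). In each set between 47.9% and 49.8% of all probes were lower on its last array. The genes that had already come down most at 9 h were CDC6 (-1.30), MCM10 (-1.29), MCM6 (-1.10) and POLE2 (-0.92), whereas LIG1 (0.53), CDT1 (0.49) and PRIM1 (0.36) were higher at 9 h than at 0 h.

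Mitosis genes took a different course on the same arrays. Of 28 genes of mitotic entry, spindle and chromosome segregation, 27 were tested and all 27 had a linear fall (21.7% of all probes). BIRC5 (-3.65), AURKB (-3.51) and KIF20A (-3.45) fell most. In 21 of the 27 the late step was the more negative by the test of the difference (5.49% of all probes), and in 0 the early step was (6.23%). The median step of the 27 was -0.46 from 0-9 h to 12-21 h (17 fell, 13.9% of all probes). It was -1.89 from 24-33 h to 36-45 h (25 fell, 2.82% of all probes). Between 33 h and 36 h, 22 of the 27 were lower by 1 log2 unit or more, against 0 of the 39 replication genes and 0.95% of all probes. Between 9 h and 12 h the counts were 0 of 27 and 19 of 39, against 1.79% of all probes. CCNB2, a mitotic cyclin, was at a mean of 14.01 over 0-9 h, 13.92 over 12-21 h, 13.73 over 24-33 h and 11.84 over 36-45 h.

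**Figure D3:**
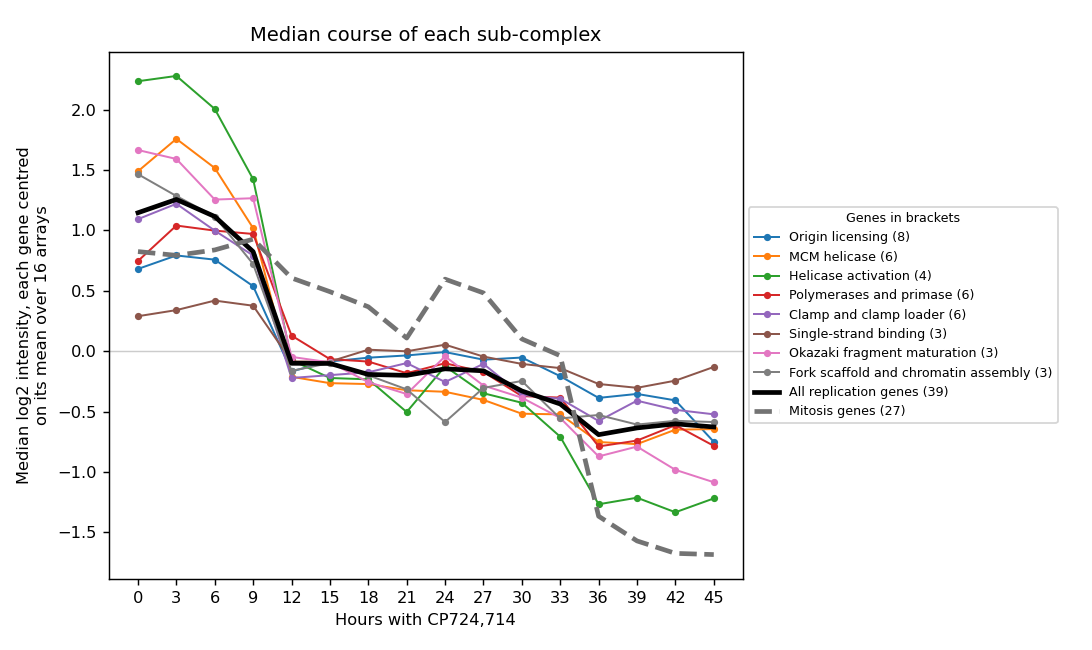
Lines give the median log2 intensity over the genes of each sub-complex, every gene centred on its own mean over the 16 arrays, against hours with CP724,714. The black line is the median of all 39 replication genes and the grey dashed line that of 27 mitosis genes. The replication medians drop between 9 h and 12 h, and the mitosis median drops from -0.04 at 33 h to -1.37 at 36 h.

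The promoters of these genes were searched for E2F-type, CHR-type and CCAAT letters, which are known from promoters of cell cycle genes. RefSeq promoters (GRCh38.p14, 250 bases before to 50 after the listed start, the first listed start of each gene) were found for 35 of the 39 genes, and MCM4, MCM5, RPA2 and RPA3 had no entry. An E2F-type 8-letter match (TTTCCCGC, TTTCGCGC, TTTGCCGC or TTTGGCGC, either strand, overlaps allowed) was present in 15 of the 32 promoters of genes with a linear fall (46.9%), in 2 of 23 promoters of mitosis genes (8.70%), in 5.08% of the 9644 promoters of genes tested on the array and in 3.33% of all 27305 promoters. All 4 MCM helicase genes with a promoter entry (MCM2, MCM3, MCM6 and MCM7) held a match. So did 3 of 8 for origin licensing, 1 of 4 for helicase activation, 3 of 6 for the polymerases and primase, 2 of 6 for the clamp and its loader, 2 of 3 for Okazaki fragment maturation, 0 of 1 for RPA and 0 of 3 for fork scaffold and chromatin assembly. MCM10, CDC45L and ORC1L, among the genes with the largest falls, had no match in this window, nor had the 3 genes without a linear call. Of those 3, WDHD1 did fall in the early step. A CHR-type match (TTTGAA or TTCGAA, either strand), the letters of a cell cycle element known from mitotic promoters, was present in 1 of the 32 promoters (3.13%), in 14 of the 23 mitosis promoters (60.9%), in 11.5% of the promoters of genes tested and in 16.6% of all. CCAAT on either strand was present in 50% of the 32, in 73.9% of the 23, in 37.4% of the promoters of genes tested and in 35.7% of all. The stretches below show 110 bases upstream of the start, 5′ to 3′ on the strand of the gene, and end at the last base before the start, or for MCM6 at base -71. They are 6 falling genes from 5 sub-complexes with their E2F-type letters in capitals, ORC2L as a gene that did not fall and has no match, and CCNB2 and PLK1 from the mitosis genes with their CHR-type letters in capitals. A match is a string of letters and not a measured binding site.
MCM6, chr2:135876514-135876623, minus strand: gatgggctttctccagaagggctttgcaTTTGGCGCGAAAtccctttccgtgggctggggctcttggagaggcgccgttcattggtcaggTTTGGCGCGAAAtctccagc
Pfs2 (GINS2 in RefSeq), chr16:85688955-85689064, minus strand: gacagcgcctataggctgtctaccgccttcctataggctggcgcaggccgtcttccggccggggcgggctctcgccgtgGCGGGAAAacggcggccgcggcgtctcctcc
POLA2, chr11:65261852-65261961, plus strand: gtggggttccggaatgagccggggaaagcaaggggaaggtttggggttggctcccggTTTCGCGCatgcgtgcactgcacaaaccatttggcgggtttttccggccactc
PCNA, chr20:5126623-5126732, minus strand: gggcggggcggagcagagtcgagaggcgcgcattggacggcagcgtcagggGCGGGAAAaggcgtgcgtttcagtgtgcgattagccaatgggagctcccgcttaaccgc
RFC3, chr13:33818039-33818148, plus strand: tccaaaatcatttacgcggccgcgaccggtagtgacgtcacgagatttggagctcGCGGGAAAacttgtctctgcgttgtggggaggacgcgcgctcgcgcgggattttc
CDT1, chr16:88803679-88803788, plus strand: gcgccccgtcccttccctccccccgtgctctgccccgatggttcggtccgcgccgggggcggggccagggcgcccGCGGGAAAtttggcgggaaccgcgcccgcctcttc
ORC2L (ORC2 in RefSeq), chr2:200963661-200963770, minus strand: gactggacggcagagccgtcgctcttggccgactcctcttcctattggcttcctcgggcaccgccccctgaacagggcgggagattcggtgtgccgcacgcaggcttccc
CCNB2, chr15:59105036-59105145, plus strand: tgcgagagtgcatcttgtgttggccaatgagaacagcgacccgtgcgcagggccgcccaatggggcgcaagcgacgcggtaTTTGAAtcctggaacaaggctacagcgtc
PLK1, chr16:23678779-23678888, plus strand: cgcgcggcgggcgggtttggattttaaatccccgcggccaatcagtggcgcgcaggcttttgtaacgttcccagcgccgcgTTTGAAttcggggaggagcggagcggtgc

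**Figure D4:**
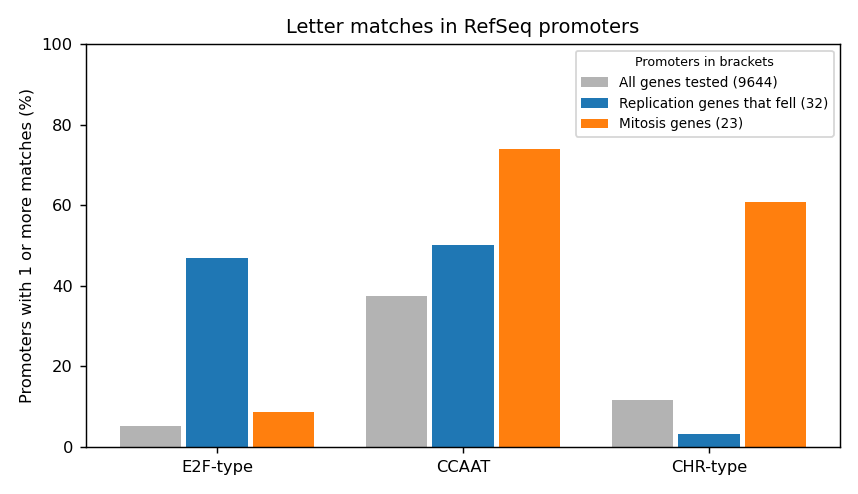
Bars give the percentage of RefSeq promoters with 1 or more matches to each motif, for all genes tested on the array, for replication genes with a linear fall and for mitosis genes, with the number of promoters in brackets. E2F-type letters are in 46.9% of the replication promoters and 8.70% of the mitosis promoters, and CHR-type letters in 3.13% and 60.9%.

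Origin licensing was a divided group. Of its 8 genes 6 had a linear fall, 4 fell in the early step and 2 in the late step. ORC1L, the largest subunit of the origin recognition complex, was at 8.78, 9.29, 9.27 and 8.67 at 0, 3, 6 and 9 h and at 6.83 at 12 h. It stayed between 6.49 and 7.34 from 15 h to 33 h, was between 5.42 and 6.03 from 36 h, and was not detected on the last 4 arrays. The fall from 0-9 h to 36-45 h was thus at least 7.51-fold, measured against the lowest detected signal of each array. ORC1L fell by 2.06 on the log2 scale in the early step (SE 0.19, adjusted p = 3.58e-07). Its late step of -1.27 (adjusted p = 0.00028) rests on values of the last 4 arrays that were not detected. Measured against the lowest detected signal, the late fall was at least 1.93-fold, a bound that was not tested.

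Of the other origin recognition subunits, ORC2L and ORC6L had no call. ORC2L lay between 9.58 and 10.08 and ORC6L between 15.50 and 15.87 on all arrays, with linear changes of 0.12 ± 0.11 (adjusted p = 0.373) and 0.12 ± 0.09 (adjusted p = 0.28). The ORC6L probe reached 87.0% of the brightest signal of an array, so that the scanner's range limits what it can show. ORC5L had a small linear fall (-0.30 ± 0.09, adjusted p = 0.0104) that was lost without the 0 h array (-0.22, adjusted p = 0.0668), and with a step between 21 h and 24 h in the fit (-0.01, adjusted p = 0.976), and its dimmer tested probe gave 0.16. ORC3L was between 10.87 and 10.95 over 0-9 h, at 10.35 at 33 h, 10.19 at 42 h and 9.66 at 45 h. Its linear change was -0.98 ± 0.11 (adjusted p = 3.17e-07), with no single step past the test. The largest drop of ORC3L between adjacent arrays, -0.53, was onto the last array.

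The loading factors and their inhibitor were all lower at the end. CDC6, the ATPase that brings MCM to origins, was at 7.65 at 0 h and 6.35 at 9 h, and between 4.85 and 5.48 from 12 h on. It was detected on the 4 arrays of 0-9 h only, which bounds its fall to at least 1.88-fold. CDT1, the partner of CDC6 in loading, was at 11.76, 12.13, 12.31 and 12.25 over 0-9 h and at 10.47, 10.32, 10.26 and 10.05 over 12-21 h. It then came back to 11.09 and 11.05 at 24 h and 27 h, declined to 10.53 at 33 h, and ended between 9.54 and 9.92 over 36-45 h. All 3 steps of CDT1 passed the test: -1.84 ± 0.14 (adjusted p = 2.77e-08), 0.59 ± 0.14 (adjusted p = 0.0116) and -1.17 ± 0.14 (adjusted p = 1.1e-05). GMNN, the inhibitor of CDT1, went from 11.65 at 0 h to 11.01 at 9 h and 9.93 at 12 h (linear change -2.01 ± 0.18, adjusted p = 2.08e-08). It was 10.14 at 15 h and 10.19 at 21 h, and showed no rise at 24 h (10.07).

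The 6 MCM helicase genes moved as a group. All 6 had a linear fall, a curved course, an early step past the test and an early step larger than the late one, and 1, MCM7, also fell in the late step. MCM2 was at 12.09, 12.21, 11.98 and 11.45 over 0-9 h, at 9.80, 9.80, 9.75 and 9.68 over 12-21 h, at 9.56, 9.59, 9.49 and 9.20 over 24-33 h and at 9.03, 8.84, 9.08 and 9.01 over 36-45 h. No value of a later window reached the lowest of the 0-9 h window, and the fall over the windows was 7.70-fold. MCM6, whose promoter shown above holds 4 matches that overlap in pairs, went from 14.12 at 0 h to 13.02 at 9 h and 11.25 at 12 h and then stayed between 11.01 and 11.52. Its early step of -2.28 ± 0.17 (adjusted p = 1.95e-08) was the largest of the group, and its late step was -0.10 ± 0.17 (adjusted p = 0.856). MCM5, MCM3, MCM4 and MCM7 had early steps of -1.94, -1.54, -1.27 and -1.30. The 3 tested probes of MCM7 gave linear changes of -1.84, -3.59 and -0.80 from the brightest to the dimmest, while both probes of MCM4 fell alike.

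Helicase activation had the largest median change of the sub-complexes, with a median linear change of -3.67 over its 4 genes against -2.47 for the MCM genes. Of the 4, 3 also fell in the late step. This rank holds for the listed members only. GINS4, a GINS subunit outside the member list, fell less (-1.12 ± 0.17, adjusted p = 1.81e-05), with a late step of -0.02 (adjusted p = 0.977). Pfs2 was at 13.96, 14.03, 13.84 and 13.26 over 0-9 h and at 11.71, 11.71, 11.48 and 11.43 over 12-21 h. It went on down to 10.75 at 33 h and was between 10.19 and 10.45 over 36-45 h, below every earlier value. Pfs2 passed the test in every step, but no gene passed in the middle step under median scaling, with the other windows, or without the array at 12, 15, 18, 30 or 33 h, and 3 genes did with array weights. CDC45L, the helicase cofactor CDC45, had the largest early step of all 39 genes (-2.60 ± 0.16, adjusted p = 5.74e-09), from 12.09 at 9 h to 10.10 at 12 h. It was higher at 24 h (10.28) than at 21 h (9.50), again across a border between sets, and was between 8.86 and 9.04 over 36-45 h. MCM10, which helps to start the helicase, had come down further by 9 h than the other 3, from 11.52 at 0 h through 11.26, 10.82 and 10.23 to 8.91 at 12 h. It likewise rose from 8.01 at 21 h to 8.97 at 24 h before it settled between 7.57 and 7.81 over 36-45 h. CDC7, the kinase that triggers MCM, fell less (-1.79 ± 0.17, adjusted p = 5.13e-08).

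Among the polymerases, the 6 genes tested all had a linear fall and an early step past the test, with linear changes from -3.06 to -0.68. POLE2, an accessory subunit of polymerase epsilon, went from 12.20 at 0 h to 11.28 at 9 h and 9.97 at 12 h, and from 9.69 at 33 h to 9.03 on the last array (linear change -3.06 ± 0.22, adjusted p = 2.11e-09). POLA2, a subunit of the polymerase alpha complex that makes the primers, went from 12.69 to 12.13 at 9 h and 10.78 at 12 h, and all later values lay between 9.97 and 10.80. PRIM1, the primase catalytic subunit of that complex, kept its level longer, with 11.83, 12.08, 12.05 and 12.19 over 0-9 h and 11.29 at 12 h. It was 10.75 at 21 h, 11.29 at 27 h and between 10.20 and 10.27 over 36-45 h. Its early step (-1.03 ± 0.11, adjusted p = 1.76e-06) and late step (-0.89 ± 0.11, adjusted p = 2.4e-05) were of like size (difference 0.14, adjusted p = 0.633). POLD1 and POLE, the catalytic subunits of polymerases delta and epsilon, had linear changes of -1.79 ± 0.18 and -1.50 ± 0.17. POLE3, a histone-fold subunit also found in a chromatin remodeller, was between 13.06 and 13.98 on all arrays (linear change -0.68 ± 0.09, adjusted p = 4.93e-06), and its call was lost with a step between 21 h and 24 h in the fit (-0.51, adjusted p = 0.134).

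The clamp and its loader split by subunit. PCNA was at 14.50, 14.52, 14.41 and 14.20 over 0-9 h and between 12.84 and 13.13 on the 12 later arrays, so the fall lay in the early step (-1.38 ± 0.08, adjusted p = 2.69e-09; late step -0.04 ± 0.08, adjusted p = 0.866). The dimmer probes of PCNA gave linear changes of -1.21 and -0.41, the latter not past the test (adjusted p = 0.058). The small loader subunits RFC2, RFC3, RFC4 and RFC5 had early steps between -1.30 and -1.11, all past the test, and RFC3 (-0.39) and RFC4 (-0.46) also fell in the late step. RFC1, the large subunit, was between 10.49 and 11.05 on all arrays and fell by 0.34 on the log2 scale (SE 0.11, adjusted p = 0.0164), with no window step past the test. With a step between 21 h and 24 h in the fit its change was not past the test (-0.71, adjusted p = 0.0708).

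Of the 3 genes of RPA, the single-strand binding protein, all fell but by little, with linear changes of -0.69 ± 0.11 for RPA1, -0.61 ± 0.08 for RPA2 and -0.72 ± 0.10 for RPA3. The call of RPA2 was lost with a step between 21 h and 24 h in the fit (-0.52, adjusted p = 0.0947). Okazaki fragment genes fell more. FEN1, the flap nuclease, declined from 13.92 at 0 h to 13.12 at 9 h and 12.19 at 12 h, and its lowest value was 11.38 at 36 h (linear change -2.37 ± 0.15, adjusted p = 3.15e-10). EXO1, which trims DNA ends, went from 11.86 at 0 h to 11.44 at 9 h and 10.02 at 12 h. It was 9.18 at 21 h and reached its lowest value, 8.21, at 36 h. LIG1, the ligase that seals the fragments, was at 10.59, 11.01, 11.11 and 11.12 over 0-9 h, at 9.80 at 12 h and 10.06 at 24 h, and declined to 8.77 at 45 h. Both EXO1 (late step -1.03) and LIG1 (-0.79) fell again in the late step. CHAF1A and CHAF1B, the large and middle subunits of the chromatin assembly factor that places histones on new DNA, had early steps of -1.26 and -2.06. For WDHD1, the scaffold that links the helicase to polymerase alpha, the probes disagreed: the brightest gave -0.31 ± 0.14 (adjusted p = 0.0699) with an early step of -0.45 ± 0.13 (adjusted p = 0.0115), and a dimmer one gave a linear change of -2.21 ± 0.28.

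**Figure D5:**
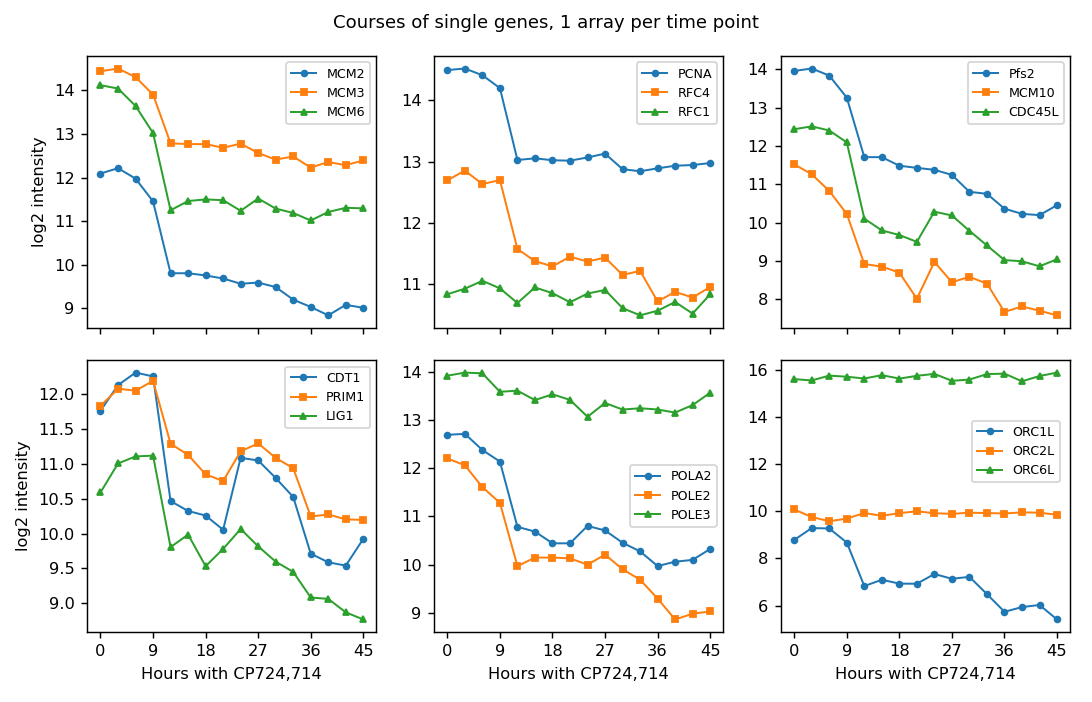
Each panel plots log2 intensity against hours with CP724,714 for 3 replication genes, with 1 point per array. MCM2, MCM6, PCNA and POLA2 drop at 12 h and stay low. CDT1, PRIM1 and CDC45L come back in part at 24 h or 27 h and drop again at 36 h. RFC1 and POLE3 fall by little, and ORC2L and ORC6L are nearly flat.

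The order of the sub-complexes was read from a midpoint time, the hour at which a gene last crossed downward the middle between its 0-9 h and 36-45 h means. It was taken for the 29 genes with a linear fall and a difference of 1 log2 unit or more between those means, and its median was 10.8 h, also over the 27 genes left without CDC6 and ORC1L, whose late levels were not detected. The medians were 10.5 h for the clamp and clamp loader (5 genes), 10.6 h for the MCM helicase (6) and for chromatin assembly (2), 11.1 h for helicase activation (4), 11.8 h for polymerases and primase (5) and 11.9 h for Okazaki fragment maturation (3). All of these medians lie between the arrays at 9 h and 12 h. With each array left out in turn, single genes moved by up to several hours, MCM6 from 8.69 to 11.2 h and MCM2 from 9.96 to 12.6 h. With arrays 3 h apart and no spread taken for the medians, their order was not tested. In origin licensing GMNN had 10.4 h, and CDC6 and ORC1L give no exact time. The probes of RFC3 disagreed: the brightest, used above, gave 10.7 h, another 11.2 h, and the dimmest 25.1 h (17.6 to 27.2 h with arrays left out). The 3 latest times belonged to LIG1 (25.4 h), CDT1 (28.7 h) and PRIM1 (29.3 h), genes that were higher at 9 h than at 0 h, and higher at 24 h than at 21 h, across a border between sets of arrays. The time of LIG1 moved between 15.2 and 25.7 h with arrays left out, while those of CDT1 (27.8 to 29.2 h) and PRIM1 (26.9 to 29.7 h) stayed late.

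Courses were as alike between sub-complexes as within them. The median Pearson r over the 16 arrays was 0.91 for 88 pairs of genes within a sub-complex and 0.91 for 653 pairs between sub-complexes, as a description across arrays that share these time points. Among all other genes tested, the 10 courses most like the mean of the members had r of 0.99 and belonged to FLJ13912, PAICS, KREMEN2, DNAJC9, ACOT7, HELLS, BOLA3, C1orf112, KDELC2 and TUBB3, with linear changes from -3.85 (HELLS) to -1.30 (BOLA3).

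Other genes of the pathway, from a list of 43, were less uniform. Of the 36 tested, 22 had a linear fall and 3 rose, and 18 fell in the early step and 6 in the late step. Over all probes, 21.7% had a linear fall and 26% a linear rise. In the early step 13.9% of all probes fell, and in the late step 2.82%. These shares stand beside the counts of every list in this paragraph. ASF1B, a histone chaperone (-3.20), TOP2A, the topoisomerase of mitosis and replication (-2.86), and C15orf42, listed by RefSeq as TICRR and needed to start replication (-2.57), fell most. POLD4, a small subunit of polymerase delta (0.92), ORC4 (0.56) and the translesion polymerase REV1 (0.45) rose. TOP2A followed the later timing, with -0.34 in the early step and -2.02 in the late step. Among 11 tested genes of deoxynucleotide supply, 8 fell, led by RRM2, the regulated subunit of ribonucleotide reductase (-4.36), TYMS, thymidylate synthase (-3.02), and TK1, thymidine kinase (-2.68), and CMPK1 rose (0.75). The early step was larger in 5 of these 11 (6.23% of all probes) and the late step in 0 (5.49%). Of 19 genes of the E2F and RB network and its cyclins, 11 fell in the early step, and 10 had a linear fall, most of all the atypical repressor E2F7 (-3.13), cyclin E2 (CCNE2, -2.74) and the pocket protein RBL1 (-2.50). RBL2, the pocket protein of resting cells (0.93), and CDKN1B, the inhibitor p27 (0.36), rose.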

How the data were processed

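The authors made biotinylated cRNA from SUM225 total RNA and hybridised it to Illumina bead arrays, 1 array for each of 16 time points. The deposited table holds a linear signal intensity per probe and array, neither background-corrected nor normalised, and a deposited detection p-value against negative control probes. The study's quantile normalisation came after this table. The scanning software and probe annotation version were not given in the sources used here.

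Signals were corrected with neqc of limma 3.58.1 (R 4.3.3), which infers the negative controls from the detection p-values, adds an offset (here 16), normalises by quantiles and takes log2. Because of the offset, differences of dim probes are understated. A probe was tested when its detection p was under 0.05 on 3 or more arrays. A cubic course in hours and, separately, 4 windows of 4 arrays were fitted to all 16 arrays with lmFit and eBayes (intensity trend), with Benjamini-Hochberg adjustment over all 16110 probes and a threshold of 0.05. Linear changes are scaled to 45 h. Errors come from deviations around the course or within windows, which also hold true changes, and precision is limited by having 16 arrays. The scripts were tested on simulated data.

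The brightest tested probe stood for a gene, and all tested members were named. Of the other lists, the 3 genes with the largest fall and any that rose are named, and of all other genes the 10 most correlated with the members. CCNB2, PLK1 and TOP2A's steps were chosen after their values were seen. The members, the lists and the windows of arrays were chosen with earlier results of these data known. Alternatives were no background correction, an offset of 50, median scaling, cyclic loess, other detection filters, array weights, other probes, other courses, other windows, a step between 21 h and 24 h, the 12 h set as a factor, and each array left out. Symbols were matched to RefSeq for 91.0% of the symbols, and promoter sequences are from RefSeq (GRCh38.p14). Figures were drawn with matplotlib 3.10.9.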

Additional observations from a re-analysis of the deposited data

How the results depend on the processing

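The counts of replication genes changing with time, falling over 45 h and falling in the early step stayed within 1.5 times their values under background, offset, normalisation, filter, weight, probe, course and window alternatives, and the late step was the larger for 0 genes in every window fit. The 12 h set as a factor left 1 gene changing with time and 1 with a linear fall, and a median linear change of -0.80. That fit uses only changes inside each set of 4 arrays and has larger SEs. It turned the sign of ORC2L (-0.42), POLE3 (0.046), RFC3 (0.017) and RPA1 (0.11), none past the threshold. The median linear change was -1.68 without background correction and -2.43 with a step between 21 h and 24 h. The latter fit lost the calls of RFC1, RPA2, POLE3 and ORC5L. The fall from 12-21 h to 24-33 h was called for 0 genes under median scaling, 3 with array weights and 0 with windows of 0-6, 9-18, 21-30 and 33-45 h. Those windows also gave 2 genes falling in the late step and 13 with the larger early step, a count added after the data were seen. The dimmest tested probe of ORC5L gave 0.16. With each array left out, 35 to 37 genes changed with time, 35 to 37 fell over 45 h, 34 to 35 fell in the early step, 0 to 2 in the middle step and 11 to 15 in the late step, 24 to 30 had the larger early step, the median linear change was -2.14 to -1.84, and the median midpoint time was 9.96 to 12.6 h. Leaving out the array at 12 h or at 45 h brought WDHD1 past the threshold (-0.35, adjusted p = 0.044, and -0.44, adjusted p = 0.023). The cause of these shifts was not tested. No paired analysis was possible because all samples carry the same replicate number, with a lone array per time point. Dim probes such as CDC6 and ORC1L, not detected late, limit folds to lower bounds.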
